A study of Drosophila melanogaster with 14 samples.

Results

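The 7 genes Six4, eya, Poxm, sd, kn, Ptx1 and mirr encode transcriptional regulators with known parts in muscle patterning of the fly embryo, and were followed here through nuclear RNA-seq of Drosophila melanogaster. They were chosen by name, with earlier results of these data known. They are 7 of the 14156 genes counted in the wild-type tables and of the 15682 counted in the tables of a Ubx degradation experiment. All 7 were tested in both sets. Nuclei had been isolated by INTACT, in which a tag placed in the nuclei of 1 tissue lets them be pulled out of an embryo lysate. The wild-type set held 2 libraries each of mesodermal nuclei (twi-INTACT) at stages 14-17, neuronal nuclei (elav>INTACT) at stages 14-17, mesodermal nuclei at stages 10-13 and neuronal nuclei at stages 10-13. The degradation set held mesodermal nuclei of stages 14-17, with 3 libraries of degraded embryos (twi-INTACT, Mef2>Nslmb,GFP-Ubx) and 3 of control embryos (twi-INTACT; UAS-Nslmb,GFP-Ubx). All 6 of these libraries carried twi-INTACT, GFP-Ubx and an Nslmb transgene, whose product directs GFP-tagged protein to degradation, and the labels name the muscle-lineage driver Mef2 for the degraded embryos alone. The labels do not say whether replicates were separate embryo collections, so p-values measure the spread between these libraries, which may be technical.

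The body wall muscles of the fly arise from mesodermal progenitors, and each muscle takes on its size, position and attachments under a combination of transcription factors. Six4 is a SIX-family homeodomain protein that acts in the mesoderm, where it is needed for parts of the somatic musculature, the fat body and the somatic gonad. Its partner Eya has no DNA-binding domain of its own and is brought to DNA by Six4 and its relatives as a coactivator. Poxm (Pox meso) is a Pax-family factor, Scalloped is the fly TEAD factor and binds Vestigial or Yorkie, Knot (Collier) is the fly member of the COE family, Ptx1 is a Pitx-type homeodomain protein, and Mirror belongs to the Iroquois family with Araucan and Caupolican. Several of the 7 also act outside muscle: eya and mirr in the eye, kn in neurons and in the lymph gland, sd in the wing.

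On the BDGP6 annotation of Ensembl, Six4 (FBgn0027364) lies on the minus strand of 3L at 20788886 to 20792777 and mirr (FBgn0014343) on the plus strand of 3L at 12693639 to 12710249. The gene eya (FBgn0000320) lies on the minus strand of 2L at 6527447 to 6546976, and kn (FBgn0001319) on the minus strand of 2R at 14772650 to 14807061. Poxm (FBgn0003129) lies on the minus strand of 3R at 8319025 to 8333792, Ptx1 (FBgn0020912) on the plus strand of 3R at 30912754 to 30930682, and sd (FBgn0003345) on the plus strand of X at 15804370 to 15827682. None of the 7 is nested inside another gene. Poxm alone shares exonic bases with a neighbour, 181 bp with Ctr1B on the opposite strand, or 7.05% of its exonic length. No source used here gives the strand counted, so reads of that stretch cannot be assigned to either gene.

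Depth and markers set the frame for these values. Counts assigned to genes ranged between 12970816 and 17905141 in wild-type mesodermal libraries and between 27924215 and 36150646 in neuronal ones. In the degradation set they ranged between 24391565 and 28150883 in degraded and between 24314883 and 31033963 in control libraries. At stages 14-17 the summed level of 8 mesoderm and muscle markers was 39927 to 43975 CPM (counts scaled to library size) in mesodermal and 5925 to 7409 CPM in neuronal libraries, whereas at stages 10-13 it was 8153 to 9058 CPM in mesodermal and 7432 to 7982 CPM in neuronal libraries. That earlier sum joined members of opposite direction: twi, sns, lmd and Mef2 were higher in mesoderm, and the muscle genes Mhc (-1.70 ± 0.27, adjusted p = 0.00186) and Act57B (-2.08 ± 0.41, adjusted p = 0.00475) were lower. The sum of the 8 neuronal markers went against the labels at stages 14-17, with 909 to 1243 CPM in mesodermal and 641 to 803 CPM in neuronal libraries. Of these 8, Rbp9 was the 1 called there, higher in mesoderm (2.41 ± 0.21, adjusted p = 0.000785). Means of brp, Syt1, nrv3, VGlut and fne were also higher in mesodermal than in neuronal libraries, without a call. They were 165.1 against 82.2 CPM for brp and 387.8 against 282.9 CPM for fne, with no overlap. Libraries of Syt1, nrv3 and VGlut overlapped. The mean of nSyb alone went the other way, with 78.8 CPM in mesodermal and 97.9 CPM in neuronal libraries. The marker elav had under 100 counts in that set. At stages 10-13 the 8 neuronal markers summed to 230 to 251 CPM in mesodermal and 608 to 835 CPM in neuronal libraries. The 5 epidermal and tracheal markers summed to 1569 to 1789 CPM in mesodermal and 3129 to 3908 CPM in neuronal libraries of those stages. At stages 14-17 they lay the other way, with 2230 to 2278 CPM in mesodermal and 1380 to 2016 CPM in neuronal libraries. Ubx RNA was 62.7, 79.1 and 89.8 CPM in degraded and 68.9, 60.3 and 71.0 CPM in control libraries. Its log2 difference was 0.21 (adjusted p = 0.448), and since the degradation acts on protein, RNA does not check these labels.

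Across the wild-type comparisons most of the 7 genes were higher in mesoderm, and 3 of them fell in mesoderm with stage. Levels are CPM after trimmed-mean (TMM) scaling, differences are log2 with their standard error, and calls are a Benjamini-Hochberg adjusted p under 0.05 over all genes tested, from the quasi-likelihood test of edgeR. At stages 14-17, 5 of the 7 were higher in mesodermal than in neuronal nuclei and none was lower. Of all 10549 genes tested, 19% were higher and 22.1% lower there, and 41.1% passed in either direction. At stages 10-13, 6 of the 7 were higher in mesoderm, against 23.2% of all genes higher, 29.5% lower and 52.8% in either direction. The median log2 difference of the 7 was 1.49 at stages 14-17 and 1.63 at stages 10-13, against all-gene medians of -0.12 and -0.08. With library totals in place of TMM scaling, the all-gene medians moved to -0.42 and -0.33, and the share of called genes that were higher in mesoderm to 27.9% and 31.0%, in place of 46.2% and 44.0%. The medians of the 7 were then 1.15 and 1.38. The same scaling moved the all-gene medians of the stage comparisons to -0.16 in mesoderm and -0.15 in neuronal nuclei, in place of 0.00 and -0.03. Between stages, 3 of the 7 fell and 1 rose in mesoderm at stages 14-17, where 22.7% of all genes fell, 24.9% rose and 47.7% passed in either direction. In neuronal nuclei 0 of the 7 passed in edgeR's test, against 8.47% of all genes higher, 12% lower and 20.4% in either direction. There, 2 of the 7 (Six4 and Poxm) had an unadjusted p under 0.05, against 36.4% of all genes. DESeq2 called 1 of the 7, Poxm, and limma-voom called 0. In bulk nuclei, fewer cells of a type and less RNA per cell cannot be told apart.

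**Figure D1:**
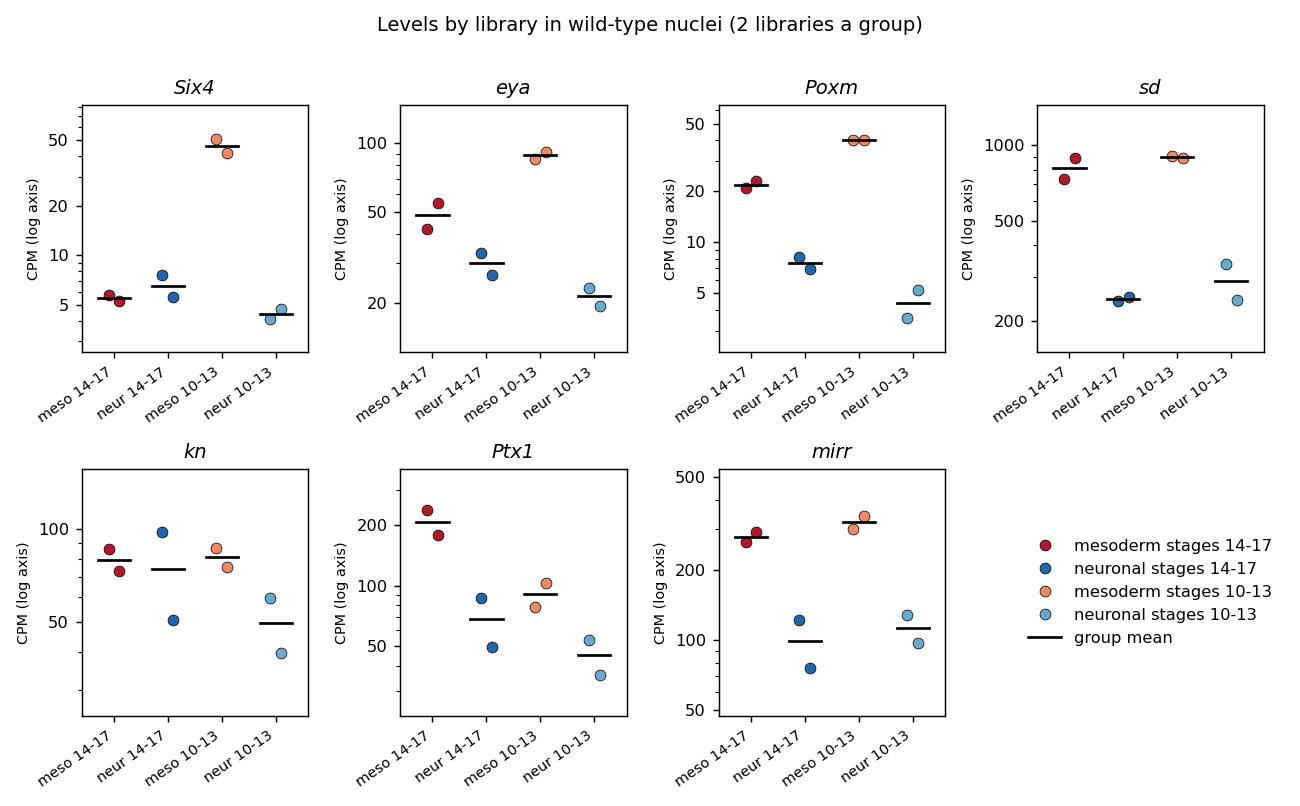
Level of each gene in the 8 wild-type libraries, in CPM on a log axis, with mesodermal nuclei in reds, neuronal nuclei in blues and a bar at the group mean. Six4 at stages 10-13 stood at 51.0 and 41.9 CPM in mesoderm, where every other library lay between 4.13 and 7.56 CPM, while sd and mirr kept mesoderm above neuronal nuclei at both stages.

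Six4 was high in a single group of wild-type libraries, mesoderm at stages 10-13. At stages 14-17 it had 5.72 and 5.31 CPM in mesodermal and 7.56 and 5.55 CPM in neuronal nuclei. At stages 10-13 it had 51.0 and 41.9 CPM in mesodermal and 4.13 and 4.72 CPM in neuronal nuclei. The early mesodermal libraries thus lay far above the other 6, and the tissues overlapped at the later stages. At stages 14-17 the difference of mesoderm against neuronal nuclei was -0.25 ± 0.25, with a 95% interval of -0.83 to 0.33 (adjusted p = 0.435). Six4 was 10.5-fold higher in mesodermal than in neuronal nuclei at stages 10-13 (log2 difference 3.39 ± 0.26, adjusted p = 0.000157). In mesoderm Six4 was 8.42-fold lower at stages 14-17 than at stages 10-13 (log2 difference -3.07 ± 0.26, adjusted p = 0.000293). In neuronal nuclei the stage difference was 0.57 ± 0.24 (adjusted p = 0.136). The stage change in mesoderm minus that in neuronal nuclei was -3.64 ± 0.35 (adjusted p = 0.000817). All 3 Six4 calls were kept when any 1 of the 8 libraries was left out. The late mesodermal values rest on 72 and 59 counts, against 819 and 720 counts in early mesoderm.

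The coactivator gene eya was also highest in early mesoderm, and was above neuronal levels at both stages. It had 42.2 and 54.6 CPM in mesodermal and 33.3 and 26.4 CPM in neuronal nuclei at stages 14-17. At stages 10-13 it had 85.5 and 91.7 CPM in mesodermal and 23.3 and 19.5 CPM in neuronal nuclei. No library of mesoderm overlapped with one of neuronal nuclei at either stage, and the lower late mesodermal library was 42.2 CPM beside an upper neuronal one of 33.3 CPM. The tissue difference was 0.70 ± 0.22 at stages 14-17 (adjusted p = 0.0355) and 2.05 ± 0.22 at stages 10-13 (adjusted p = 0.0004). The later call was lost in 7 of the 8 fits that each left out 1 library, with adjusted p between 0.0516 and 0.214, and kept without neuronal stages 14-17 replicate 1 (0.0173). It was also lost with library totals (0.241) and with only the 4 libraries compared (0.102). In mesoderm eya fell by 0.87 ± 0.22 at stages 14-17 (adjusted p = 0.0131). That call was lost without mesoderm stages 10-13 replicate 2 (adjusted p = 0.0645) and without mesoderm stages 14-17 replicate 1 (0.0948).

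Poxm followed a similar course at a lower level. It had 20.8 and 22.8 CPM in mesodermal and 8.15 and 6.92 CPM in neuronal nuclei at stages 14-17, and 39.8 and 40.0 CPM in mesodermal and 3.60 and 5.22 CPM in neuronal nuclei at stages 10-13. The mesodermal libraries were above the neuronal ones at both stages with no overlap, and the 2 early mesodermal libraries lay close together. Poxm was higher in mesoderm by 1.53 ± 0.24 at stages 14-17 (adjusted p = 0.00399) and by 3.17 ± 0.26 at stages 10-13 (adjusted p = 0.000175), and both calls were kept without any 1 library. It fell in mesoderm at stages 14-17 by 0.87 ± 0.24 (adjusted p = 0.02). That call was lost when any of the 4 mesodermal libraries was left out, with adjusted p of 0.136 and 0.0828 without replicates 1 and 2 of stages 14-17, and 0.0905 and 0.093 without replicates 1 and 2 of stages 10-13. In neuronal nuclei its stage difference was 0.77 ± 0.24, with an unadjusted p of 0.0141 and an adjusted p of 0.0612.

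The stage change differed between the tissues for Six4, eya and Poxm, which were 3 of the 7, all with the lower change in mesoderm. Of all genes, 14.7% had a lower and 20.6% a higher stage change in mesoderm, or 35.4% in either direction. The difference of stage changes was -1.35 ± 0.30 for eya (adjusted p = 0.0128) and -1.64 ± 0.34 for Poxm (adjusted p = 0.00964), beside the -3.64 of Six4. Without mesoderm stages 14-17 replicate 1 the calls of eya and Poxm were lost (adjusted p = 0.0528 and 0.0563), and without neuronal stages 14-17 replicate 2 kn was added (0.0181). With that same neuronal library left out, 1 neuronal library of stages 14-17 remained. The stage differences within neuronal nuclei were then 0.83 for Six4, 0.71 for eya, 0.94 for Poxm, 1.05 for kn and 1.02 for Ptx1. The median of the 7 was 0.83, against 0.003 over all genes, in place of 0.57 and -0.03 with all libraries. Markers of other cell types also moved with stage in mesoderm: the 6 hemocyte markers summed to 2784 to 2912 CPM at stages 14-17 and 1079 to 1134 CPM at stages 10-13, and the 4 fat body markers to 6919 to 7457 CPM at stages 14-17 and 2481 to 3197 CPM at stages 10-13. Tig carried most of the hemocyte sum (means of 2216 CPM at stages 14-17 and 354 CPM at stages 10-13), while srp and crq fell (adjusted p = 0.0491 and 0.00595). The fat body sum was nearly all apolpp, whose stage difference did not pass (1.34 ± 0.50, adjusted p = 0.0607); Fbp1 and Lsp1beta averaged under 1 CPM in mesoderm and Adh was at 0. The part of these markers in the results was not tested.

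**Figure D2:**
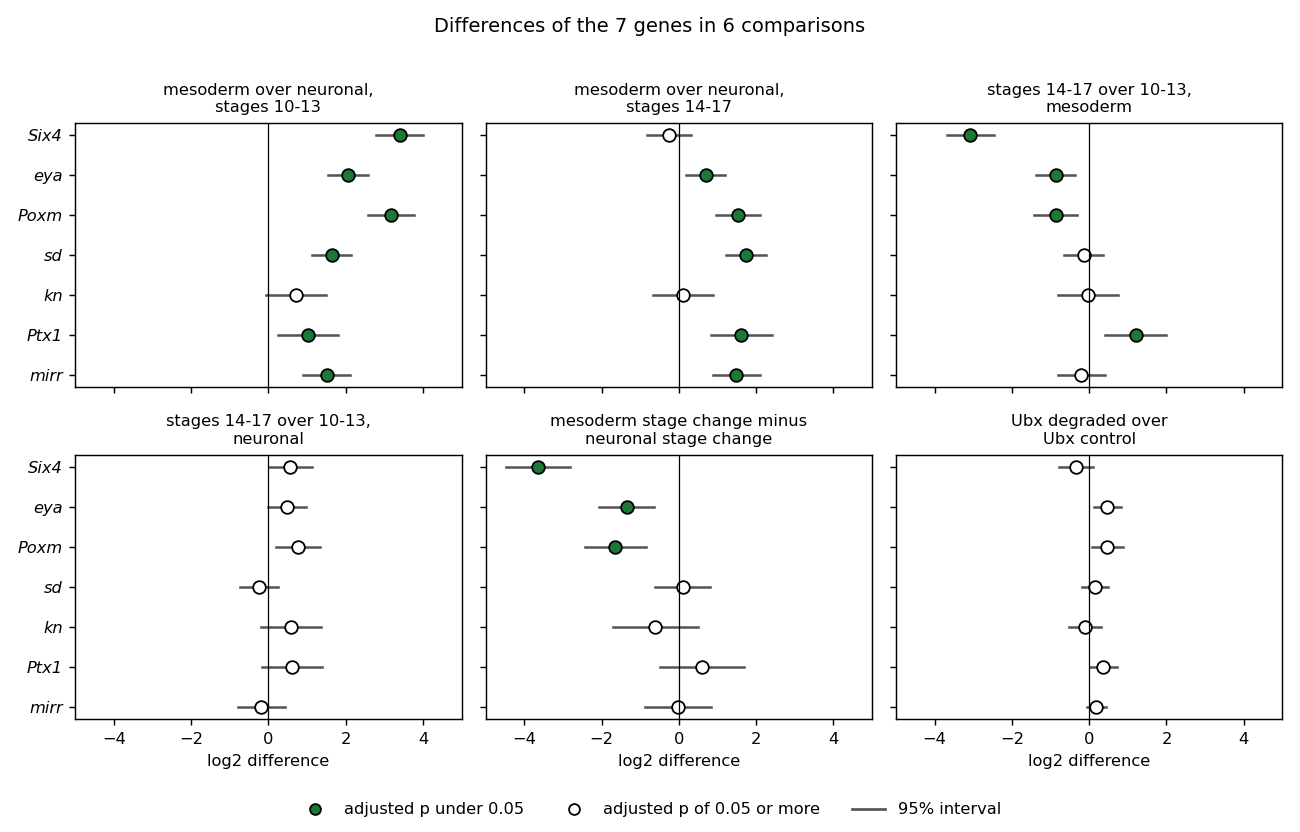
Log2 differences of the 7 genes in the 6 comparisons, with 95% intervals, filled where the adjusted p was under 0.05. Between tissues, Six4 has an interval that spans 0 at stages 14-17 and a difference of 3.39 at stages 10-13, and in edgeR's quasi-likelihood test none of the 7 passed in neuronal nuclei between stages or between degraded and control embryos. DESeq2 called Poxm with stage in neuronal nuclei.

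Scalloped RNA was the most abundant of the 7 and had no detectable difference between stages. The gene sd had 734 and 890 CPM in mesodermal and 240 and 248 CPM in neuronal nuclei at stages 14-17, and 904 and 888 CPM in mesodermal and 336 and 242 CPM in neuronal nuclei at stages 10-13. Every mesodermal library was above every neuronal one. The tissue difference was 1.73 ± 0.22 at stages 14-17 (adjusted p = 0.00205) and 1.63 ± 0.22 at stages 10-13 (adjusted p = 0.00089), and both calls were kept without any 1 library. Its stage difference was -0.14 ± 0.21 in mesoderm (95% interval -0.64 to 0.36, adjusted p = 0.616) and -0.24 ± 0.21 in neuronal nuclei (adjusted p = 0.446).

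The Iroquois gene mirr was likewise higher in mesoderm at both stages. It had 265 and 290 CPM in mesodermal and 122 and 75.8 CPM in neuronal nuclei at stages 14-17, and 300 and 339 CPM in mesodermal and 128 and 97.3 CPM in neuronal nuclei at stages 10-13. Mesodermal libraries lay above neuronal ones throughout, and the ratio between replicates was larger in neuronal nuclei. It was higher in mesoderm by 1.49 ± 0.26 at stages 14-17 (adjusted p = 0.00559) and by 1.51 ± 0.26 at stages 10-13 (adjusted p = 0.00264), calls that were kept without any 1 library. The stage difference in mesoderm was -0.20 ± 0.26 (95% interval -0.81 to 0.40, adjusted p = 0.546), although the libraries of the stages did not overlap.

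Ptx1 was the one gene of the 7 that rose with stage in mesoderm. It had 239 and 179 CPM in mesodermal and 86.7 and 49.8 CPM in neuronal nuclei at stages 14-17, and 78.1 and 104 CPM in mesodermal and 54.1 and 36.1 CPM in neuronal nuclei at stages 10-13. Both late mesodermal libraries stood above all others, and replicates of each group were further apart by ratio than those of Poxm. It was higher in mesoderm by 1.61 ± 0.34 at stages 14-17 (adjusted p = 0.00964) and by 1.02 ± 0.33 at stages 10-13 (adjusted p = 0.0358). It rose in mesoderm at stages 14-17 by 1.20 ± 0.34 (adjusted p = 0.0215). The later tissue call was lost without mesoderm stages 14-17 replicate 1 (adjusted p = 0.0694), and the earlier one without mesoderm stages 10-13 replicate 2 (0.13) or neuronal stages 10-13 replicate 2 (0.181). The stage call was lost without mesoderm stages 10-13 replicate 1 (0.125) or replicate 2 (0.0503), or mesoderm stages 14-17 replicate 1 (0.132). With library totals in place of TMM scaling the stage call (0.0538) and the earlier tissue call (0.125) were lost as well.

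The COE factor gene kn was the one of the 7 with no call between the tissues in the main fit of all wild-type libraries. It had 86.1 and 72.8 CPM in mesodermal and 97.7 and 50.8 CPM in neuronal nuclei at stages 14-17, and 86.9 and 75.4 CPM in mesodermal and 59.7 and 39.6 CPM in neuronal nuclei at stages 10-13. The late neuronal libraries lay on either side of the mesodermal ones, whereas at stages 10-13 mesoderm was above with no overlap. The tissue difference was 0.10 ± 0.33 at stages 14-17 (adjusted p = 0.829) and 0.71 ± 0.34 at stages 10-13 (95% interval -0.07 to 1.49, adjusted p = 0.111). With only the 4 libraries compared, the difference at stages 10-13 was 0.77 ± 0.22 and passed (adjusted p = 0.0176). It also passed with replicate number as a block (0.0351), and not under the other changes of method. The earlier difference passed without either neuronal library of stages 14-17, with adjusted p of 0.0161 without replicate 1 and 0.00771 without replicate 2. The direction at stages 14-17 turned, without a call, to -0.25 with library totals, to -0.04 without mesoderm stages 14-17 replicate 1 and to -0.33 without neuronal stages 14-17 replicate 2.

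Set on the same scale per length of exon, sd and mirr had the highest means in every group. In mesoderm at stages 14-17 the order was sd (92.6 ± 12.5 CPM per kb, SD, n = 2), mirr (71.3 ± 4.69), Ptx1 (58.5 ± 12.0), kn (18.1 ± 2.13), eya (13.1 ± 2.37), Poxm (8.50 ± 0.562) and Six4 (2.98 ± 0.157), with no overlap between the libraries of neighbours in that order. In mesoderm at stages 10-13, sd (102 ± 1.22 CPM per kb) and mirr (82.1 ± 7.11) came first, then Ptx1 (25.5 ± 5.10), Six4 (25.1 ± 3.49) and eya (24.0 ± 1.18), whose libraries overlapped, then kn (18.5 ± 1.85) and Poxm (15.5 ± 0.0796). Among 10352 genes ranked per kb, Six4 stood at percentile 24.5 in late and 70.4 in early mesoderm, and sd at 92.9 and 94.3. The libraries of mirr overlapped those of Ptx1 in neuronal nuclei at stages 14-17 and in degraded and control embryos. In neuronal nuclei the libraries of sd and mirr overlapped at both stages, as did those of Ptx1 and kn, and Six4 and Poxm took the lowest places.

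Between degraded and control embryos, none of the 7 genes passed the threshold. Of all 11641 genes tested, 3.57% were higher and 1.21% lower in degraded embryos, or 4.78% in either direction. edgeR's quasi-likelihood test, DESeq2 and limma-voom each called 0 of the 7, and 3 of them had an unadjusted p under 0.05 in edgeR, against 24.8% of all genes. The CPM of 4 of the 7 (Six4, eya, Poxm and mirr) did not overlap between the groups, against 27.8% of all genes. The median log2 difference of the 7 was 0.18, against -0.01 over all genes. Leaving out control replicate 3 added 1 call, Ptx1 (adjusted p = 0.0455). The count over all genes was 557, and was 238, 34 and 1645 without control replicates 1, 2 and 3, and 316, 64 and 167 without degraded replicates 1, 2 and 3.

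**Figure D3:**
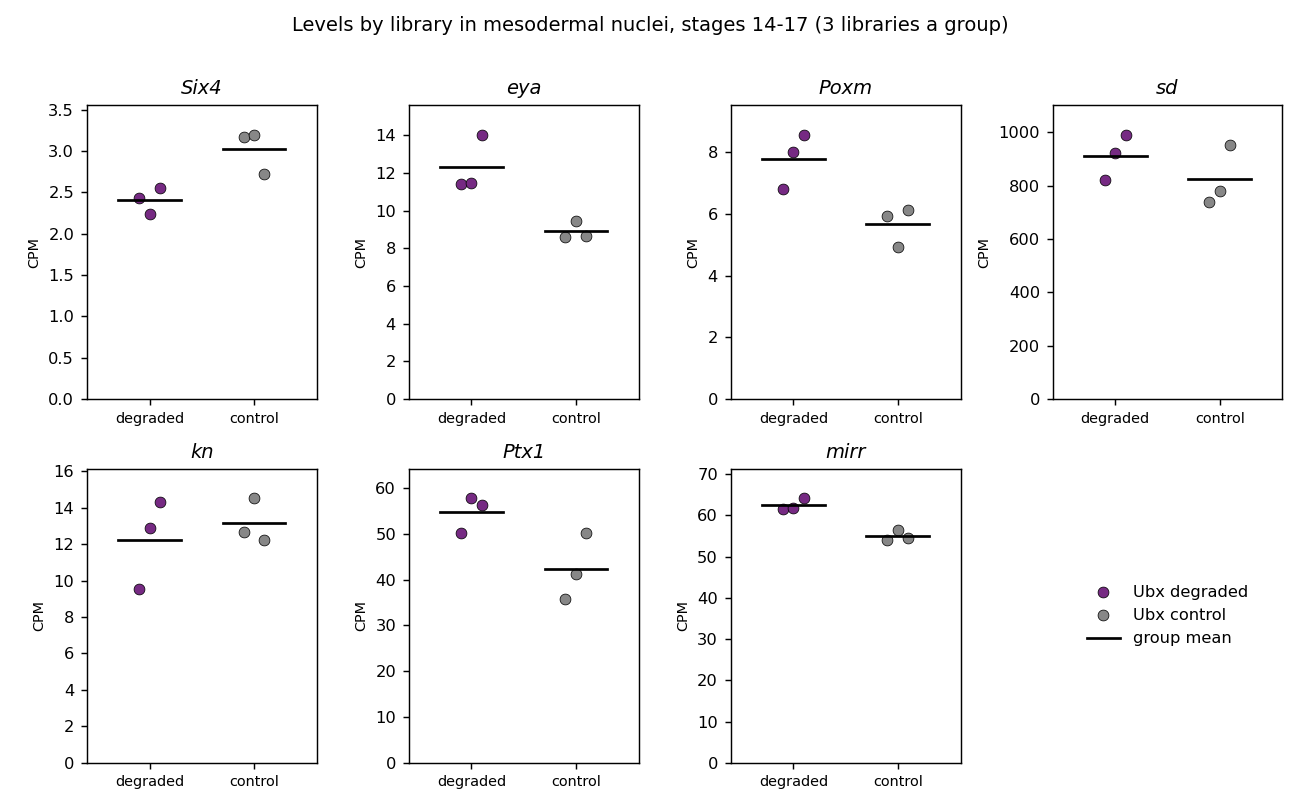
Level of each gene in the 3 degraded and 3 control libraries of mesodermal nuclei at stages 14-17, in CPM on axes that start at 0, with a bar at the group mean. Six4 was lower and eya, Poxm and mirr were higher in all degraded libraries, with no overlap, but none of these differences passed the adjusted threshold.

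Six4 was 2.43, 2.23 and 2.55 CPM in degraded and 3.16, 3.20 and 2.72 CPM in control libraries, from 60 to 63 counts in degraded and 64 to 100 counts in control libraries. All degraded libraries lay below all control ones. The log2 difference was -0.34 ± 0.19, with a 95% interval of -0.77 to 0.10 (adjusted p = 0.316). The partner eya was 11.4, 11.5 and 14.0 CPM in degraded and 8.60, 9.46 and 8.63 CPM in control libraries. It lay the other way, with all degraded libraries above the controls. Its difference was 0.47 ± 0.16 (95% interval 0.11 to 0.82, unadjusted p = 0.0158, adjusted p = 0.117).

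Poxm was 6.79, 8.02 and 8.57 CPM in degraded and 5.93, 4.92 and 6.12 CPM in control libraries, a difference of 0.46 ± 0.18 (unadjusted p = 0.0281, adjusted p = 0.152). Ptx1 was 50.1, 57.8 and 56.3 CPM in degraded and 35.9, 41.2 and 50.2 CPM in control libraries, a difference of 0.37 ± 0.15 (unadjusted p = 0.0402, adjusted p = 0.181). The degraded libraries of Poxm were all above the controls, while the highest control library of Ptx1 just exceeded its lowest degraded one. The narrowest groups relative to their level were those of mirr, with 61.4, 61.9 and 64.1 CPM in degraded and 54.1, 56.5 and 54.6 CPM in control libraries. The groups did not overlap, but the difference was small, 0.18 ± 0.11 (95% interval -0.06 to 0.43, adjusted p = 0.339).

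The groups also overlapped for sd and kn. Levels of sd were 822, 921 and 991 CPM in degraded and 740, 778 and 951 CPM in control libraries (0.15 ± 0.15, 95% interval -0.18 to 0.48, adjusted p = 0.581). Levels of kn were 9.54, 12.9 and 14.3 CPM in degraded and 12.7, 14.5 and 12.2 CPM in control libraries (-0.10 ± 0.18, 95% interval -0.52 to 0.32, adjusted p = 0.782). For neither gene did all degraded libraries lie on 1 side of the controls. Markers of other cell types differed between the same libraries: 5 epidermal and tracheal markers summed to 1940 to 2294 CPM in degraded and 1007 to 1180 CPM in control libraries, and 6 hemocyte markers to 2366 to 2441 CPM in degraded and 1702 to 1848 CPM in control libraries. Of the 5 epidermal and tracheal markers, serp, verm, shg and trh were called higher. Tig carried the hemocyte sum (0.74 ± 0.14, adjusted p = 0.0289), Hml was lower in degraded embryos (-1.43 ± 0.28, adjusted p = 0.0313), and the other 4 hemocyte markers did not pass. The sums of the 8 mesoderm and muscle markers overlapped, at 34064 to 39386 CPM in degraded and 35686 to 47291 CPM in control libraries. The part of these markers in the results was not tested.

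The wild-type and degradation sets have separate count tables and scaling, so levels across them are given side by side with no test. In mesodermal nuclei of stages 14-17, sd averaged 823 ± 113 CPM in the control libraries (SD, n = 3) and 812 ± 110 CPM in the wild-type libraries (n = 2). The other 6 genes were all lower in the control libraries: mirr averaged 55.1 ± 1.27 CPM in control against 277 ± 18.2 CPM in wild-type libraries, Ptx1 42.4 ± 7.27 CPM in control against 209 ± 42.7 CPM in wild type, and kn 13.1 ± 1.22 CPM in control against 79.5 ± 9.36 CPM in wild type. Likewise eya averaged 8.90 ± 0.491 CPM in control against 48.4 ± 8.73 CPM in wild type, Poxm 5.66 ± 0.644 CPM in control against 21.8 ± 1.44 CPM in wild type, and Six4 3.03 ± 0.266 CPM in control against 5.51 ± 0.291 CPM in wild type. Some other genes lay the other way. In every wild-type group, neuronal nuclei and both stages included, Kr, Poxn, dan and moody were at 0 CPM. They averaged 6.05, 2.81, 6.12 and 62.4 CPM in control libraries. Whether reads of these genes were counted at all in the wild-type set was not tested. The gene elav averaged 0.254 CPM in wild-type mesoderm and 0.0840 CPM in neuronal nuclei of stages 14-17, against 146 CPM in control libraries. For the 7 genes, differences of genotype and of counting cannot be told apart and were not tested. Of the degradation reads 42.8 to 48.6% were multi-mapped.

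Among 9 listed genes of the retinal determination network, to which eya belongs (so, Optix, dac, ey, toy, eyg, toe, dan and danr), 8 were tested in the wild-type set. At stages 10-13, 23.2% of all genes were higher in mesoderm and 29.5% lower, or 52.8% in either direction. The shares at stages 14-17 were 19%, 22.1% and 41.1%. With stage, 22.7% of all genes fell in mesoderm and 12% in neuronal nuclei, and 4.78% passed between degraded and control embryos. At stages 10-13, so, Optix and dac were higher in mesoderm and danr was lower (its call was lost in 5 of the 8 fits without 1 library, up to 0.132), with a list median of 0.09 against -0.08 over all genes; with library totals the list median was -0.16. The SIX-family gene so, best known as the partner of eya in the eye, was higher in mesoderm by 2.15 ± 0.23 (adjusted p = 0.000409) and the SIX-family gene Optix by 1.90 ± 0.30 (adjusted p = 0.00167). At stages 14-17 the higher genes were so (2.09 ± 0.23, adjusted p = 0.0014) and dac (1.43 ± 0.34, adjusted p = 0.015). The call of dac was lost without mesoderm stages 14-17 replicate 1 or 2, with library totals, and with only the 4 libraries compared. Between stages eyg and toe fell in mesoderm and also in neuronal nuclei, each with calls lost when single libraries were left out (adjusted p of up to 0.27). Between degraded and control embryos 0 of 9 tested passed in edgeR's quasi-likelihood test and in limma-voom, while Optix had an unadjusted p under 0.05 in both and was the 1 gene that DESeq2 called.

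**Figure D4:**
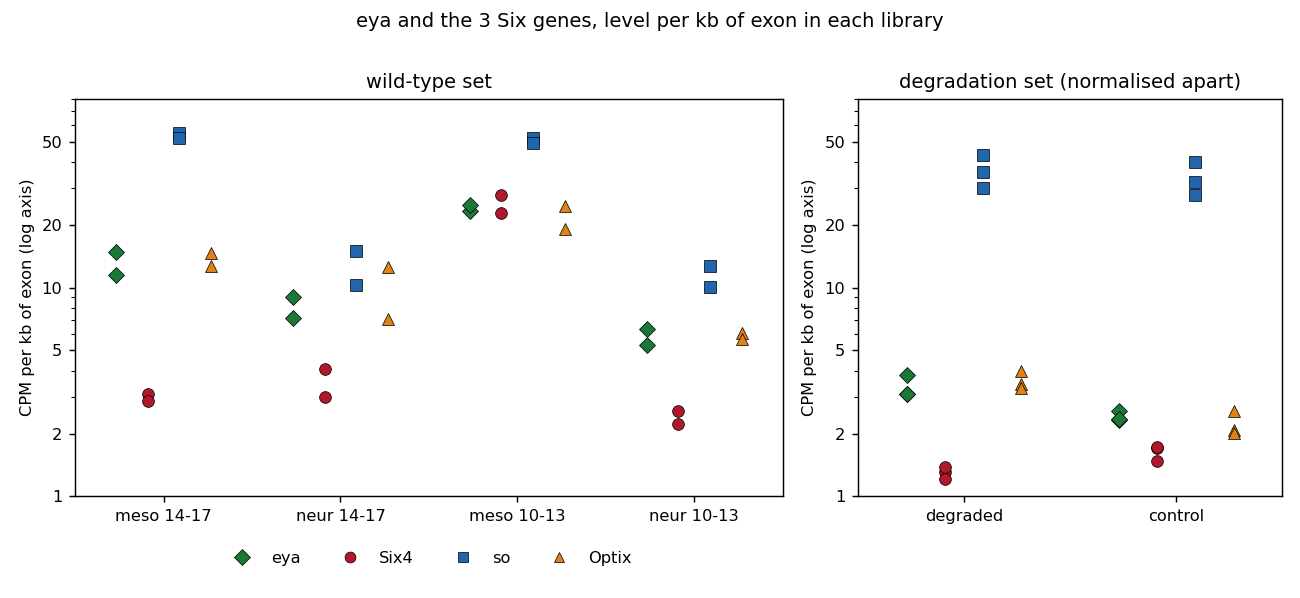
Levels of eya and of the 3 SIX-family genes in every library, in CPM per kb of exon on a log axis, with the wild-type and degradation sets in separate panels because they were normalised apart. Six4 reached the level of eya in early mesoderm alone, at 27.6 and 22.7 CPM per kb beside 23.2 and 24.8 for eya, while so stayed between 49.1 and 55.0 CPM per kb in wild-type mesoderm of both stages.

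The share of Six4 among the SIX-family genes was higher in early mesoderm. Six4 made up 4.37 and 4.11% of the summed per-kb level of Six4, so and Optix in mesoderm at stages 14-17, and 28.0 and 23.6% at stages 10-13. The gene so held 55.0 and 52.3 CPM per kb in mesoderm at stages 14-17 and 51.9 and 49.1 CPM per kb at stages 10-13. The level of so thus moved little between stages where that of Six4 fell. Optix averaged 13.6 CPM per kb in mesoderm at stages 14-17 and 21.8 at stages 10-13. The stage change of Optix in mesoderm minus that in neuronal nuclei was -1.43 ± 0.41 (adjusted p = 0.0314). That call was kept in 3 of the 8 fits that left out 1 library. In neuronal nuclei Six4 made up 12.9 and 14.7% of the same sum at stages 14-17, and 10.6 and 14.0% at stages 10-13. These shares were chosen after the values were seen and carry no test.

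The remaining lists held the families and pathways of the other genes. Their counts stand beside the shares of all genes: 19% were higher and 22.1% lower in mesoderm at stages 14-17, 23.2% higher and 29.5% lower at stages 10-13, and 24.9% rose and 22.7% fell with stage in mesoderm. The stage change was lower in mesoderm than in neuronal nuclei for 14.7% of all genes and higher for 20.6%. In degraded embryos 3.57% of all genes were higher and 1.21% lower. The all-gene medians were -0.12 between tissues at stages 14-17, -0.08 at stages 10-13 and 0.00 with stage in mesoderm. Of 8 tested Pax genes, gsb was the 1 called between tissues at stages 14-17, lower in mesoderm (-0.91 ± 0.29, adjusted p = 0.0394), a call lost in 5 of the 8 fits that left out 1 library (up to 0.175). At stages 10-13 gsb, prd and gsb-n were higher in mesoderm, and 5 (gsb, prd, gsb-n, eyg and toe) fell in mesoderm at stages 14-17, with a list median of -1.15. The segment polarity gene gsb fell by 3.02 ± 0.31 (adjusted p = 0.000453) and the pair-rule gene prd by 2.69 ± 0.42 (adjusted p = 0.00204), calls kept without any 1 library. The level of prd was low, at 0.719 and 1.03 CPM in mesoderm at stages 14-17 and 4.49 and 6.93 CPM at stages 10-13. The stage change of gsb, prd and gsb-n was also lower in mesoderm than in neuronal nuclei, as it was for 14.7% of all genes. The difference was -2.34 ± 0.41 for gsb (adjusted p = 0.00475). The call of prd between tissues was lost without mesoderm stages 10-13 replicate 2 or neuronal stages 10-13 replicate 1 (up to 0.0753). In degraded against control embryos 0 of 9 Pax genes passed in edgeR's quasi-likelihood test, DESeq2 or limma-voom, and 0 had an unadjusted p under 0.05.

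Of 12 tested partners of Scalloped and Hippo pathway genes, 4 were higher in mesoderm at stages 14-17 (kibra, wts, Tgi and vg, list median -0.02) and 9 at stages 10-13 (list median 0.81), against 19% and 23.2% of all genes and all-gene medians of -0.12 and -0.08. The upstream Hippo regulator kibra was higher by 2.34 ± 0.21 (adjusted p = 0.000834) and the kinase gene wts by 1.27 ± 0.17 (adjusted p = 0.00235) at stages 14-17. With stage in mesoderm 5 of the 12 fell, against 22.7% of all genes. They were the kinase genes wts and hpo, the coactivator gene yki, the cadherin gene ft (-1.50 ± 0.30, adjusted p = 0.00598) and the FERM-domain gene Mer (-0.92 ± 0.19, adjusted p = 0.00605). Tgi, a corepressor that binds Scalloped, was the 1 of these 12 that was higher in degraded embryos, by 0.67 ± 0.14 (adjusted p = 0.0371); it was called in 2 of the 6 fits that left out 1 library, and lost without control replicate 1 or 2 or degraded replicate 2 or 3 (up to 0.154).

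The other Iroquois genes, ara and caup, were also higher in mesoderm. At stages 14-17 ara was higher in mesoderm by 2.18 ± 0.22 (adjusted p = 0.00104) and caup by 1.78 ± 0.22 (adjusted p = 0.00198), and at stages 10-13 caup by 2.10 ± 0.22 (adjusted p = 0.000391). Of the 6 tested TALE homeobox genes, 3 were higher in mesoderm at stages 14-17 (ara, hth and caup) and 4 at stages 10-13 (hth, caup, ara and exd), against 19% and 23.2% of all genes. In degraded embryos caup was 41.0 to 52.0 CPM, against 26.8 to 29.8 CPM in controls, and rose by 0.74 ± 0.14 (adjusted p = 0.0268). That call was lost without control replicate 1 or 2 or degraded replicate 2 or 3, with adjusted p of up to 0.133.

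Among 11 paired-like homeobox genes, the class of Ptx1, 3 were higher in mesoderm at stages 14-17 (oc, Vsx1 and al) and 4 at stages 10-13 (oc, Vsx1, otp and Gsc), with repo, the glial determinant, lower. Of all genes, 19% were higher at stages 14-17 and 23.2% at stages 10-13. The later call of Vsx1 was lost without mesoderm stages 14-17 replicate 2 (0.0625). The gene oc fell in mesoderm by 1.17 ± 0.18 at stages 14-17 (adjusted p = 0.00188), while al, like Ptx1, rose (1.13 ± 0.35, adjusted p = 0.0303); the call of al was lost in 6 of the 8 fits that left out 1 library (up to 0.182). In degraded embryos oc was 24.2 to 28.8 CPM, against 12.1 to 16.2 CPM in controls, and rose by 0.83 ± 0.16 (adjusted p = 0.0298). It was kept in 1 of the 6 fits that left out a library, that without control replicate 3, and had an adjusted p of up to 0.133 in the others.

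Among 14 tested genes for the identity of somatic muscles, 11 were higher in mesoderm at stages 14-17 and 9 at stages 10-13, with medians of 1.64 and 1.33, against 19% and 23.2% of all genes. The T-box gene org-1 was higher by 2.01 ± 0.18 at stages 14-17 (adjusted p = 0.000844) and by 3.33 ± 0.19 at stages 10-13 (adjusted p = 0.000105). With stage in neuronal nuclei 2 of these 14 rose, against 8.47% of all genes. They were org-1 (1.31 ± 0.18, adjusted p = 0.00418) and tey (1.08 ± 0.17, adjusted p = 0.00694). The neuronal call of tey was lost without neuronal stages 10-13 replicate 1 and with only the 4 libraries compared. The stage change was lower in mesoderm for 3 of the 14, against 14.7% of all genes. With stage in mesoderm, tey and ara rose and Dr fell, so 2 of these 14 rose and 1 fell, against 24.9% and 22.7% of all genes. The call of ara was lost without mesoderm stages 10-13 replicate 1 or stages 14-17 replicate 2 (up to 0.0657), and that of Dr without mesoderm stages 14-17 replicate 1 (0.0531). Of 10 genes that subdivide the mesoderm, 6 were higher in mesoderm at stages 14-17 and 9 at stages 10-13, against 19% and 23.2% of all genes. With stage in mesoderm 7 fell, against 22.7% of all genes, with a list median of -0.90, and twi rose (1.05 ± 0.28, adjusted p = 0.0163), a call lost without each 1 of the 4 mesodermal libraries in turn (up to 0.124). The heart determinant tin fell by 3.18 ± 0.32 (adjusted p = 0.00046). The stage change of 7 of these genes was lower in mesoderm than in neuronal nuclei, against 14.7% of all genes. The FGF receptor gene htl was the 1 of these 10 that rose in degraded embryos, by 0.82 ± 0.17 (adjusted p = 0.0371), with 188 to 243 CPM in degraded and 96.4 to 144 CPM in control libraries; it was kept only without control replicate 3, and reached 0.159 in the other fits.

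Genes with the most similar profiles over the 8 wild-type libraries were named by the smallest root-mean-square difference of centred log2 CPM among 9026 genes. For Six4 they were Spc105R (0.33), cmet (0.34) and mud (0.34), and for eya dnt (0.12), Dr (0.16) and Abd-B (0.17). For Poxm they were srp (0.21), nmo (0.24) and meso18E (0.25), and for sd RhoGAP71E (0.11), Gug (0.13) and bin3 (0.14). The profile of Six4 was the least matched of the 7, and that of mirr the closest matched, by RhoGAPp190 (0.0607), ZAP3 (0.0622) and Socs16D (0.12). For Ptx1 they were sens-2 (0.16), Evi5 (0.20) and axed (0.20), and for kn CG34404 (0.18), CG13376 (0.21) and ova (0.22). The spans of mud and CG13376 are wholly overlapped by other genes, those of dnt and srp by 49.4 and 41.7%, so their counts are uncertain.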

How the data were processed

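RNA of INTACT nuclei was measured in 14 libraries, grouped by the labels' tissue, stage and genotype. The authors deposited raw, unnormalised counts for each gene. Per the submitters' processing notes the tools were HTSeq and FastQC, with dm6 and BDGP6 as builds. No source used here gives the aligner, versions, annotation or strand. Lines that name no gene stayed out of library sizes and tests; in the degradation set they left 42.7 to 48.9% of reads assigned. Symbols and positions came from Ensembl release 115, with a symbol for 98.4% of wild-type and 95.7% of degradation genes.

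filterByExpr, at a minimum count of 10 and a minimum total of 15, left 10549 and 11641 genes. Each set had 1 fit, with TMM scaling and edgeR 4.0.16's quasi-likelihood test, group means only, 4 residual degrees of freedom and Benjamini-Hochberg adjustment at 5%. Biological coefficients of variation (common) were 0.277 for the wild type and 0.191 for the degradation set. Standard errors are the log2 difference divided by the root of F. Alternatives used DESeq2 1.42.0, limma 3.58.1 and R 4.3.3, and the calling was tested on simulated data. Tables and plots used Python 3.11.15. Levels per kb are CPM over the summed exon length.

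The 7 genes, lists and tests were chosen with earlier results of these data known. Each list's genes were counted, and at most 2 higher and 2 lower with the smallest adjusted p were named per comparison; where a count was small, its other genes were named after their values were seen. The listed genes ap, ds and tal are not analysed here, and dan, Poxn and Kr were not tested in the wild-type set. Likeness was set over genes with a mean of at least 5 CPM in any wild-type group, naming 3 genes for each of the 7. Replicates of each group differed beyond sampling noise. Chi-square per degree of freedom was highest between the neuronal libraries of stages 14-17, at 318, with TMM factors of 1.15 and 0.972. It was 143 for neuronal stages 10-13, 24.3 and 23.5 for mesoderm at stages 14-17 and 10-13, and 21.4 to 155 in the degradation set. This measure also grows with depth, which was higher in neuronal than in mesodermal wild-type libraries. With counts alone, precision is limited by the 2 or 3 libraries a group.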

Additional observations from a re-analysis of the deposited data

Results flagged for a closer look

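The change between stages differed between mesodermal and neuronal nuclei, by a test of that difference over all 8 wild-type libraries, for Six4 (-3.64), eya (-1.35) and Poxm (-1.64 on the log2 scale). In each case the gene fell in mesoderm at stages 14-17 and did not pass in neuronal nuclei in edgeR's quasi-likelihood test with all libraries; there Poxm passed in DESeq2 (adjusted p = 0.0265) and with RLE scaling (0.0463), and all 3 passed without neuronal stages 14-17 replicate 2. The differences of sd, mirr, kn and Ptx1 did not pass.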

How the results depend on the processing

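Directions and calls of the 7 genes were kept in 591 of the repeated fits of single genes, 25 lost a call, 13 gained one and 14 turned direction, none of these past the threshold. Without 1 library, the tissue difference of kn at stages 14-17 ranged between -0.33 and 0.62, and with library totals it was -0.25. The stage difference of kn in mesoderm ranged between -0.18 and 0.043. In neuronal nuclei the stage difference of sd ranged between -0.43 and 0.044, and that of mirr between -0.53 and 0.19. The difference of stage changes ranged between -0.21 and 0.27 for sd and between -0.43 and 0.31 for mirr, and was 0.014 for mirr with limma-voom. Between degraded and control embryos kn ranged between -0.21 and 0.059. The cause was not tested.

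Leaving out 1 library at a time, 3 to 5 of the 7 genes were called between tissues at stages 14-17, 1 to 4 with stage in mesoderm, 0 to 5 with stage in neuronal nuclei, 1 to 4 for the difference of stage changes and 0 to 1 between degraded and control. Over all genes the counts were 1328 to 5647, 2862 to 6267, 386 to 4231, 2000 to 5261 and 34 to 1645, against 4340, 5027, 2154, 3730 and 557 with all libraries. DESeq2 and RLE scaling each called 1 of the 7 with stage in neuronal nuclei. Only the 4 libraries compared gave 2810 genes between tissues at stages 14-17, 6530 (against 5566) at stages 10-13, 6443 with stage in mesoderm and 765 with stage in neuronal nuclei; the cause was not tested.

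Same-numbered degraded and control libraries deviated together with correlations of 0.217, 0.0887 and 0.272, and wild-type ones with -0.141 to 0.163. Differently numbered libraries were not compared, so these values do not settle whether the numbers mark pairs. The main fits used no pairs. At every replicate number sd and Ptx1 were higher in the degraded library, though their groups overlapped. The gene kn was lower there at numbers 1 and 2 and higher at number 3. With the replicate block, 1238 genes passed between degraded and control, against 557 without it and 1212 in DESeq2, and 0 of the 7; between tissues at stages 10-13 the block added kn (0.0351). Six4 was not tested between degraded and control under the stricter filter, since its counts there are low.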

Other observations

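The ratio of eya to Six4, each in CPM per kb, was noticed after the values were seen and was not tested. It was 2.36, 2.57 and 2.76 in degraded and 1.36, 1.48 and 1.59 in control libraries, with no overlap. In wild-type mesoderm it was 3.70 and 5.16 at stages 14-17 and 0.839 and 1.10 at stages 10-13, and in neuronal nuclei it was between 2.07 and 2.83 in all 4 libraries. The degradation set was normalised apart, and Six4 had at most 100 counts in its libraries.

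The ratio of sd to vg, its partner gene in wing and muscle, was 7.58 and 8.12 in mesoderm at stages 14-17 and 16.1 and 12.7 at stages 10-13, on the same per-kb scale. It was 28.4, 34.0 and 24.9 in degraded and 37.3, 38.5 and 29.0 in control libraries, which overlapped. At each replicate number the ratio in the degraded library was the lower.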
